A study of Homo sapiens with 12 samples.

Results

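The 9 genes described here are LIN28A, LIN28B, HMGA1, HMGA2, IGF2BP1, IGF2BP2, IGF2BP3, GPC3 and ARID3A, a set of oncofetal genes: genes active in embryonic or fetal tissue, low in most adult tissues and often active again in tumours. They were taken by Entrez gene number from all 12 per-library tables, and make up 9 of the 23922 genes in those tables. All 9 passed the filter on low counts. The cells were differentiated toward hepatocytes from H9, an established line of human embryonic stem cells, and were labelled hepatoblasts at day 7 and hepatocytes at day 19. On each day they had received 30 nM T4 (thyroxine), 30 nM T3 (triiodothyronine, the form with the higher affinity for the nuclear thyroid hormone receptors) or 0.1% DMSO as the control. Each of the 6 groups had 2 libraries. All groups share the H9 line as their single cell source. The labels give neither the time of hormone addition nor the origin of the 2 libraries of a group, which may be 1 culture measured again. The p-values therefore reflect library-to-library spread alone.

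LIN28A and LIN28B are RNA-binding proteins that bind precursors of the let-7 microRNAs and block their maturation. The mature let-7 microRNAs, which accumulate as cells differentiate, pair through their seed with sites in the 3′ UTRs of mRNAs and lower the output of those mRNAs, among them the mRNAs of LIN28A and LIN28B themselves, HMGA2 and IGF2BP1. HMGA1 and HMGA2 are chromatin proteins that bind the minor groove of AT-rich DNA. IGF2BP1, IGF2BP2 and IGF2BP3 bind mRNAs, IGF2 among them, and affect their stability and translation. GPC3 is a cell-surface heparan sulfate proteoglycan of fetal liver, used as a marker of hepatocellular carcinoma, and ARID3A is a transcription factor with an ARID DNA-binding domain.

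Library totals were 18363549 to 19306181 expected counts, and the 10 most abundant genes held 5.48% to 12.1% of them. Libraries of a group differed by more than sampling noise, with a chi-square per gene of 4.954 to 8.618 at day 19 and 1.585 to 2.1 at day 7. Of the label's defining markers, HNF4A had 79.9 and 93.8 CPM (counts scaled by TMM to 1000000 per library) in T4, 53.9 and 66.2 CPM in T3 and 241 and 224 CPM in DMSO at day 19. ALB, which encodes albumin, had 3.14 and 2.501 CPM in T4, 0.898 and 1.57 CPM in T3 and only 17.8 and 20.8 CPM in DMSO at day 19. None of the 18 hepatocyte markers was at 0 in both libraries of a group at day 19.

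The let-7 family is shown first because the 3′ UTRs of most of the 9 genes hold matches to its seed. RefSeq (GRCh38.p14) listed 12 let-7 family precursors in the table used, with 9 distinct mature 5p sequences. All share 1 seed, bases 2 to 8, written here in capitals.
let-7a: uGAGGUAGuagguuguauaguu
let-7g: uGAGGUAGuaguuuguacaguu
miR-98: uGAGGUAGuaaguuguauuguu

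LIN28 proteins are known to bind a GGAG motif in the loop of let-7 precursors. GGAG was found after the 5p arm, before any annotated 3p arm, in 9 of the 12 precursors. It was missing there in those of let-7a-3, let-7b and miR-98. As a background, 43.4% of all 1560 human precursors held GGAG anywhere. The first precursor below holds the motif, in capitals, and the other one does not.
let-7g precursor (chr3:52268278-52268361, minus strand): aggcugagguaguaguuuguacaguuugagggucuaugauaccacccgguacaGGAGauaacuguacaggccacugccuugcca
let-7a-3 precursor (chr22:46112749-46112822, plus strand): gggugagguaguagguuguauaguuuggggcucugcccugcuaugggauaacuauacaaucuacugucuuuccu

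The complement of the seed, CTACCTC, was searched on the sense strand of the 3′ UTR of each gene's most abundant RefSeq transcript, as GENCODE release 29 annotates it on GRCh38. LIN28B, HMGA2 and IGF2BP1 held 4 matches each and ARID3A held 2. LIN28A, HMGA1, IGF2BP2 and IGF2BP3 held 1 each, and GPC3 held none in its 379 bases of 3′ UTR. A match is a description of the letters and not a measured site. The first match of the 3 genes with 4 matches, and the single match of LIN28A, are printed with the match in capitals, because the first 3 genes hold the most matches and LIN28A is both a let-7 blocker and a let-7 target.
HMGA2 (chr12:65963298-65963327, plus strand): gccaacgttcgatttCTACCTCagcagcag
LIN28B (chr6:105078812-105078841, plus strand): acccggttgcaaagtCTACCTCatgcaagt
IGF2BP1 (chr17:49051061-49051090, plus strand): tgtgtgcgaagtaaaCTACCTCaaggtatg
LIN28A (chr1:26427348-26427377, plus strand): gcacagcctattgaaCTACCTCatttttgc

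The match of HMGA2 begins at base 21 of its 3′ UTR and that of LIN28B at base 44, so both lie close to the stop codon. All 4 printed matches are followed by A, which favours repression at microRNA sites in general. Over all 4 matches of a gene, A follows 1 in HMGA2, 2 in LIN28B and 3 in IGF2BP1. The single match of HMGA1 is not followed by A. As a background, the longest 3′ UTR of each gene was searched in 2 ways. Among basic GENCODE transcripts of 19111 genes, 9.58% held at least 1 match and 0.0628% held at least 4, and 7 of the 9 genes here held at least 1 and 2 held at least 4. HMGA2 had no match by that measure, because its longest 3′ UTR belongs to another isoform. After this was seen, the search was repeated on RefSeq-matched transcripts only. Of 18510 genes, 9.03% then held at least 1 match and 0.054% at least 4, and 8 of the 9 genes held at least 1 and 3 held at least 4. No test was made of either count, since several of the genes were named for this set as known let-7 targets.

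**Figure D1:**
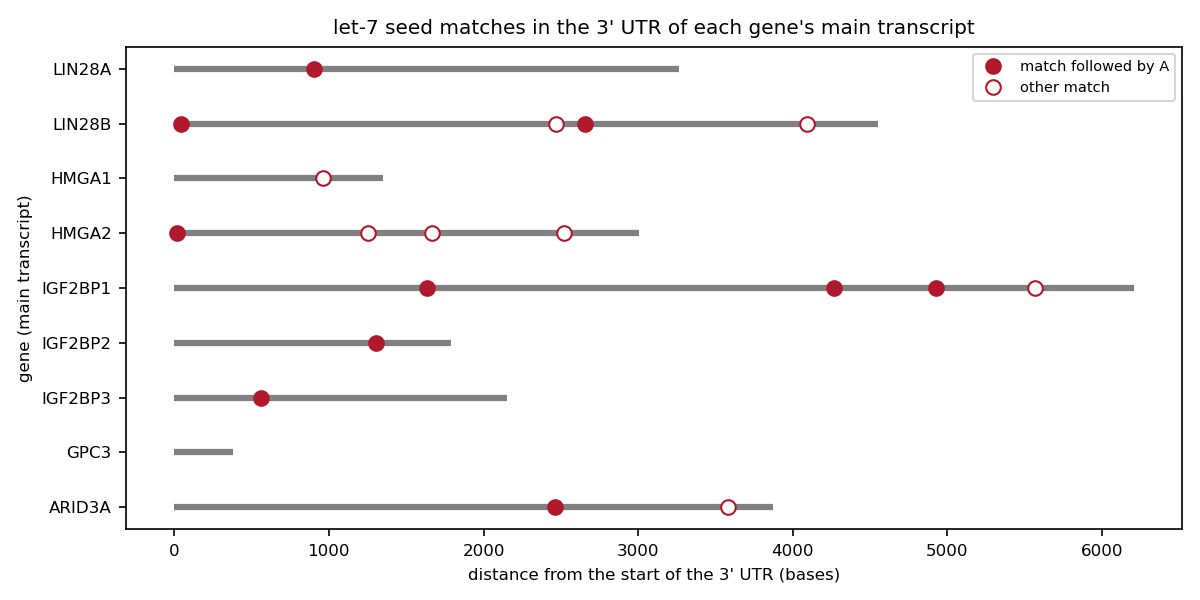
Positions of CTACCTC matches (circles, filled where the next base is A) along the 3′ UTR of the most abundant transcript of each gene, in bases from its start. LIN28B, HMGA2 and IGF2BP1 carry 4 matches each and GPC3 carries none.

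Mature microRNAs were not measured by these libraries. Of the let-7 family precursors, only MIRLET7D, MIRLET7F1, MIRLET7G and MIRLET7I were listed among the measured genes, with 0 to 6 counts per library. The host transcript MIRLET7BHG, which carries let-7a-3 and let-7b, had 11 to 28 counts. Of the 5 let-7 host transcripts tested, 1 passed the test with T3 on each day and none with T4. MIR99AHG, host of let-7c, was called 1.73 higher on the log2 scale in T3 than in DMSO at day 7 (adjusted p = 0.0102), at 48 and 57 counts in T3 and 18 and 14 counts in DMSO. HUWE1, host of miR-98 and let-7f-2, was called 0.29 higher in T3 than in DMSO at day 19 (adjusted p = 0.0185). The levels of mature let-7 in these cells are not known from these data.

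At day 19, 7 of the 9 genes changed with each hormone, as called by edgeR's quasi-likelihood test at an adjusted p of at most 0.05 over 18101 tested genes. With T4, 5 were higher (21% of all tested genes were called higher) and 2 lower (21.9%). With T3, 5 were higher (25.1% of all genes) and 2 lower (27.3%). LIN28A, HMGA1, IGF2BP2, IGF2BP3 and ARID3A were higher and HMGA2 and GPC3 lower with each hormone, while LIN28B and IGF2BP1 did not pass the test. The median log2 fold change of the 9 was 0.20 with T4 and 0.26 with T3, beside medians of 0.00 and -0.03 over all tested genes. The T4 and T3 comparisons share the DMSO libraries. In bulk libraries, fewer cells of a type and less RNA per cell cannot be told apart.

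At day 7, 2 of the 9 were higher and 0 lower with T4 in edgeR, where 3.9% of all genes were called higher and 2.52% lower, and 3 higher and 0 lower with T3, where the shares were 9.43% and 6.54%. At an unadjusted p of at most 0.05, 1 was lower with each hormone, and DESeq2 called 0 lower. HMGA1 and IGF2BP3 were higher with each hormone and IGF2BP2 with T3. Libraries of hormone and DMSO groups did not overlap for 8 of the 9 genes with T4 and for 7 with T3, beside 57.6% and 62.5% of all tested genes. Analysed without the day-19 libraries, day 7 gave 6 calls among the 9 with T4 and 5 with T3, where 20.1% and 31% of all genes were called in either direction. GPC3 was among these calls, lower with each hormone. Over all genes, the calls of the shared fit numbered 1162 with T4 and 2891 with T3. They numbered 371 to 393 with T4 and 1308 to 1461 with T3 when any 1 of the 4 libraries compared was left out.

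**Figure D2:**
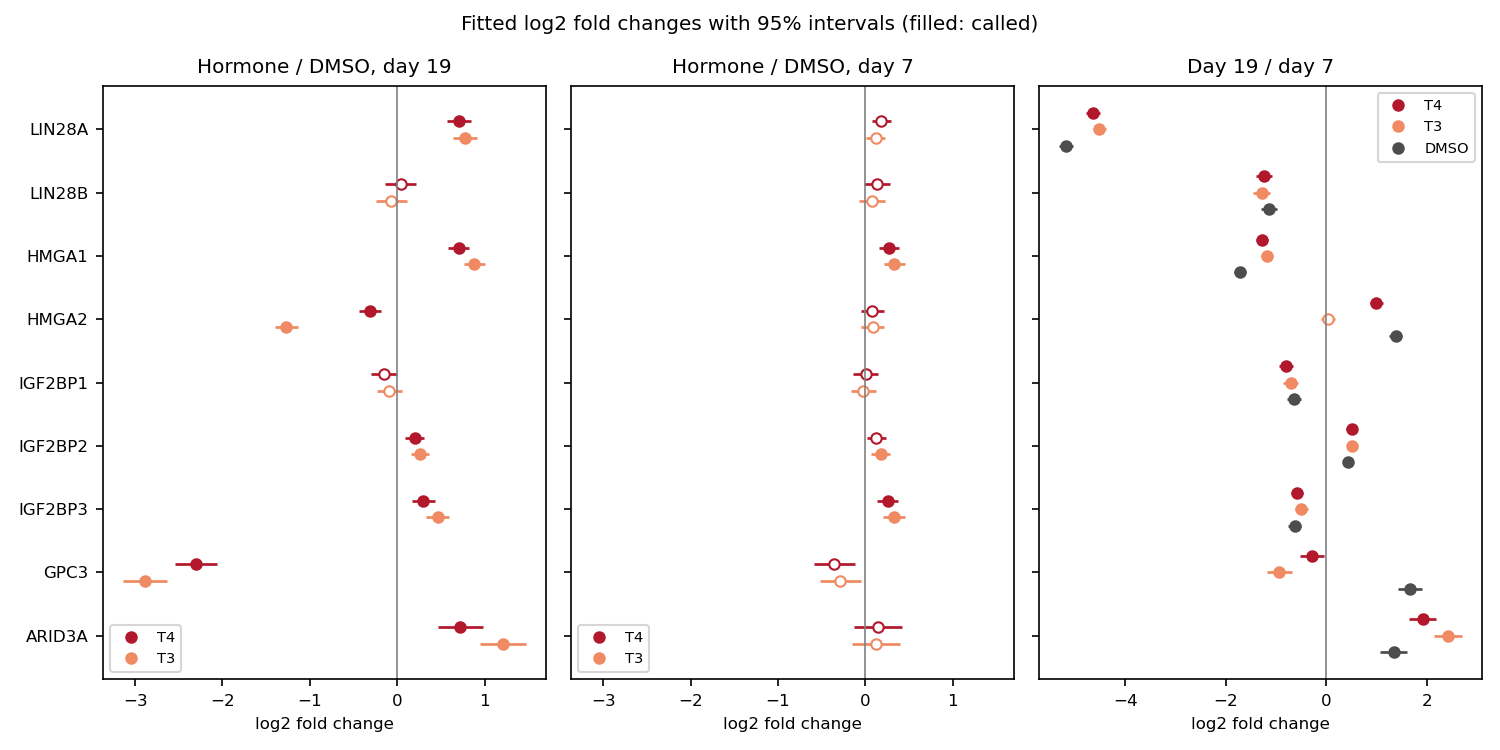
Fitted log2 fold changes (points) with 95% intervals (lines) of the 9 genes for T4 and T3 against DMSO at day 19 and at day 7, and for day 19 against day 7 under each treatment. Filled points passed the test. At day 19 GPC3 lies farthest to the left, at -2.30 with T4 and -2.89 with T3.

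LIN28A (Entrez 79727, chr1:26410817-26429728, plus strand), the let-7 blocker best known from pluripotent cells, had 49.2 and 45.4 CPM in T4, 49.9 and 49.0 CPM in T3, and 29.7 and 28.2 CPM in DMSO at day 19. Every hormone library stood above both DMSO libraries. The log2 fold change was 0.71 (SE 0.07, adjusted p = 6.47e-07) with T4 and 0.77 (SE 0.07, adjusted p = 1.4e-07) with T3. At day 7 the level was far higher, at 1165 and 1192 CPM in T4, 1147 and 1110 CPM in T3, and 1033 and 1046 CPM in DMSO. There the log2 differences of 0.18 with T4 (adjusted p = 0.0517) and 0.12 with T3 (adjusted p = 0.14) did not pass the test. The T4 difference was called when any 1 of the 6 day-19 libraries was left out (adjusted p = 0.0295 to 0.0403), by DESeq2, without the 10 most abundant genes and from day 7 alone (adjusted p = 0.000176 to 0.0491). The T3 difference was called from day 7 alone (adjusted p = 0.0069). The effect was larger at day 19 than at day 7, by 0.53 with T4 (adjusted p = 0.000277) and by 0.66 with T3 (adjusted p = 2.22e-05).

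LIN28B (389421, chr6:104937026-105083332, plus strand), its paralog, had 33.2 and 30.6 CPM in T4, 29.6 and 29.6 CPM in T3, and 33.3 and 28.7 CPM in DMSO at day 19. Each hormone group overlapped DMSO, and both T4 libraries lay above both T3 libraries. Fitted log2 differences were 0.04 (95% interval -0.13 to 0.22) with T4 and -0.07 (-0.25 to 0.11) with T3. At day 7 LIN28B had 75.03 and 75.2 CPM in T4, 68.7 and 75.7 CPM in T3, and 68.9 and 68.1 CPM in DMSO, with no call for either hormone. The antisense transcript LIN28B-AS1, whose exons overlap those of LIN28B, had 0 to 5 counts per library.

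The 2 paralogs thus stood in a different ratio on each day, and with hormone at day 19. On the FPKM scale, which corrects for length, LIN28A exceeded LIN28B by 2.04 and 2.04 times in T4, 2.32 and 2.28 times in T3 and 1.23 and 1.35 times in DMSO at day 19. The same ratio was 20.2 to 22.9 over the 6 libraries of day 7.

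HMGA1 (3159, chr6:34236873-34246231, plus strand), the more widely expressed of the AT-hook proteins, had 768 and 745 CPM in T4, 890 and 815 CPM in T3, and 465 and 463 CPM in DMSO at day 19. All hormone libraries stood above the DMSO libraries. The T4 effect was 0.71 on the log2 scale (SE 0.06, adjusted p = 1.34e-07) and the T3 effect 0.88 (SE 0.06, adjusted p = 6.68e-09). At day 7 it was the most abundant of the 9, at 1841 and 1846 CPM in T4, 1939 and 1905 CPM in T3, and 1581 and 1473 CPM in DMSO. In log2 terms the effect there was 0.27 with T4 (adjusted p = 0.00846) and 0.33 with T3 (adjusted p = 0.000921), and no library overlapped. The T4 call at day 7 was lost without the second DMSO library or without either T4 library of that day (adjusted p = 0.0836 to 0.149). The effect was larger at day 19 by 0.43 with T4 (adjusted p = 0.000822) and by 0.55 with T3 (adjusted p = 6.68e-05).

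HMGA2 (8091, chr12:65824460-65966291, plus strand), the paralog regulated by let-7 and linked to growth and mesenchymal tumours, went the other way at day 19. It had 163 and 156 CPM in T4, 81.9 and 82.5 CPM in T3, and 207 and 189 CPM in DMSO. The T3 libraries stood lowest, the T4 libraries between, and no groups overlapped. The log2 fold change was -0.31 (SE 0.06, adjusted p = 0.000548) with T4 and -1.27 (SE 0.06, adjusted p = 3.24e-10) with T3. The T4 difference was smaller on the FPKM scale, at -0.17 on log2(FPKM + 0.1), where limma did not call it (adjusted p = 0.0503).

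At day 7 HMGA2 had 78.1 and 82.8 CPM in T4, 78.9 and 82.2 CPM in T3, and 77.0 and 75.2 CPM in DMSO, and it passed no test. The hormone effect at day 19 was lower than that at day 7 by a log2 difference of -0.39 with T4 (adjusted p = 0.00319) and -1.35 with T3 (adjusted p = 3.08e-08). The antisense RNA HMGA2-AS1 had 21.96 to 57.43 counts per library. The ratio of HMGA1 to HMGA2 FPKM was 9.40 and 9.45 in T4, 21.3 and 19.7 in T3 and 4.45 and 4.95 in DMSO at day 19, and 38.4 to 48.7 at day 7.

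**Figure D3:**
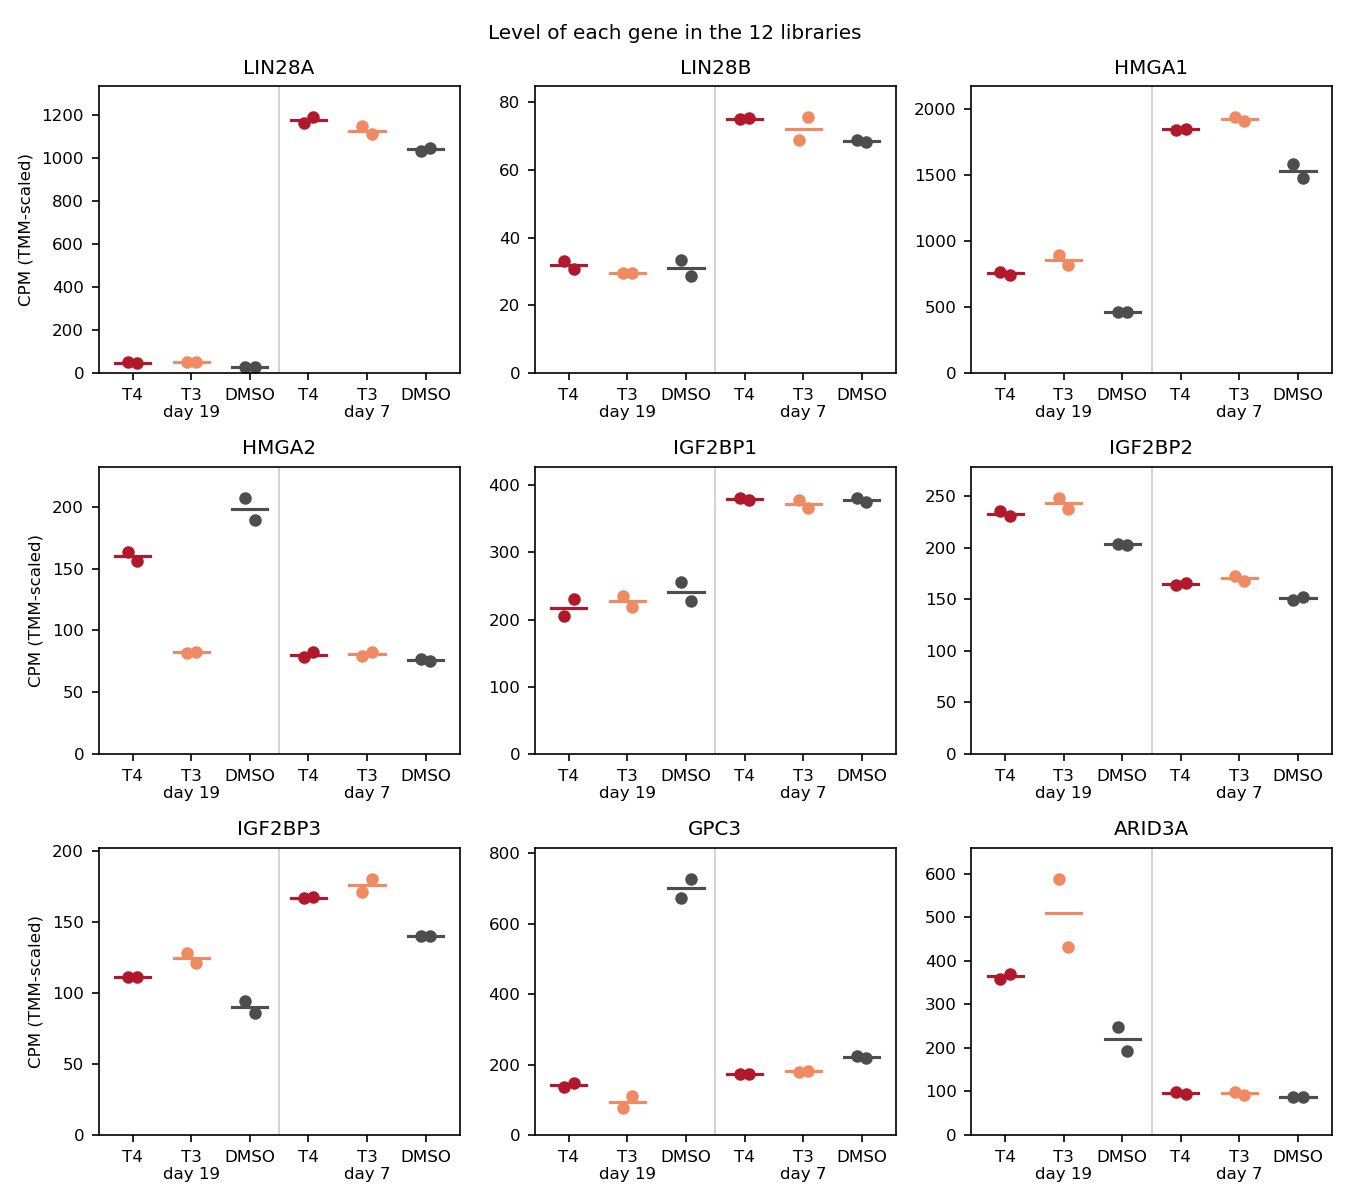
TMM-scaled CPM of the 9 genes in each library (points) with the group mean (line), for T4, T3 and DMSO at day 19 (left of the grey line) and at day 7 (right). GPC3 in DMSO at day 19, at 673 and 728 CPM, stands above all other libraries, and LIN28A is high at day 7.

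IGF2BP1 (10642, chr17:48996558-49056145, plus strand), the let-7-targeted member of the mRNA-binding family, had 205 and 230 CPM in T4, 235 and 219 CPM in T3, and 256 and 227 CPM in DMSO at day 19. The groups overlapped. Fitted log2 differences were -0.15 with T4 (95% interval -0.30 to -0.0036, adjusted p = 0.0933) and -0.09 with T3 (-0.24 to 0.06). The T4 difference was -0.24 without the second DMSO library or the second T4 library of day 19. Over all libraries left out in turn it ran from -0.24 to -0.06. Under the other alternatives it ran from -0.15 to -0.02, and the mean FPKM was 23.07 in T4 and 23.34 in DMSO. At day 7 all 6 libraries lay between 366 and 381 CPM, and neither hormone passed the test.

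IGF2BP2 (10644, chr3:185643130-185825042, minus strand), the family member that stays active in adult tissues, had 235 and 231 CPM in T4, 249 and 238 CPM in T3, and 203 and 203 CPM in DMSO at day 19. It was higher by 0.20 on the log2 scale with T4 (SE 0.05, adjusted p = 0.00459) and by 0.26 with T3 (SE 0.05, adjusted p = 0.000432), with no overlap. On log2(FPKM + 0.1) the T4 effect was 0.32. At day 7 it had 164 and 166 CPM in T4, 172 and 168 CPM in T3, and 149 and 153 CPM in DMSO. In the shared fit the T4 difference of 0.13 was not called (adjusted p = 0.156). From day 7 alone it was called, at 0.12 (adjusted p = 0.018). The T3 difference of 0.17 was called in the shared fit (adjusted p = 0.0285), though not by DESeq2 (adjusted p = 0.0505). That call was lost when any 1 of the 6 day-7 libraries was left out (adjusted p = 0.0513 to 0.187).

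IGF2BP3 (10643, chr7:23310209-23470491, minus strand), a fetal member re-expressed in many carcinomas, had 111 and 111 CPM in T4, 128 and 121 CPM in T3, and 94.6 and 85.9 CPM in DMSO at day 19. Its log2 effect was 0.30 (SE 0.06, adjusted p = 0.000947) with T4 and 0.46 (SE 0.06, adjusted p = 1.22e-05) with T3. At day 7 it had 166 and 167 CPM in T4, 171 and 180 CPM in T3, and 140 and 140 CPM in DMSO. The hormone libraries stood above DMSO on both days. The day-7 log2 fold change was 0.25 with T4 (adjusted p = 0.0157) and 0.33 with T3 (adjusted p = 0.00132), and the T4 call was lost without any 1 of the 4 T4 and DMSO libraries of that day (adjusted p = 0.119 to 0.135). Exons of IGF2BP3 overlap those of MALSU1 on the other strand, which had 349 to 612 counts per library, and the strand of counting is not given.

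Within the family, IGF2BP2 made up 52.2% and 50.4% of the summed IGF2BP FPKM in T4, 50.3% and 50.7% in T3, and 47.8% and 50.4% in DMSO at day 19. At day 7 its share was 31.1% to 32.2% over the 6 libraries. The share of IGF2BP1 was 22.4% and 24.6% in T4, 23.1% and 22.8% in T3 and 29.3% and 27.7% in DMSO at day 19, and that of IGF2BP3 was 25.4% and 25.0% in T4, 26.6% and 26.5% in T3 and 22.9% and 21.9% in DMSO. IGF2BP1 thus exceeded IGF2BP3 in DMSO at day 19 and was below it in all 4 hormone libraries. For the 3 genes, the hormone effects on counts did not pass the test of a difference between the days. On FPKM, limma called that difference for IGF2BP2 with T4 and T3 and for IGF2BP3 with T3.

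**Figure D4:**
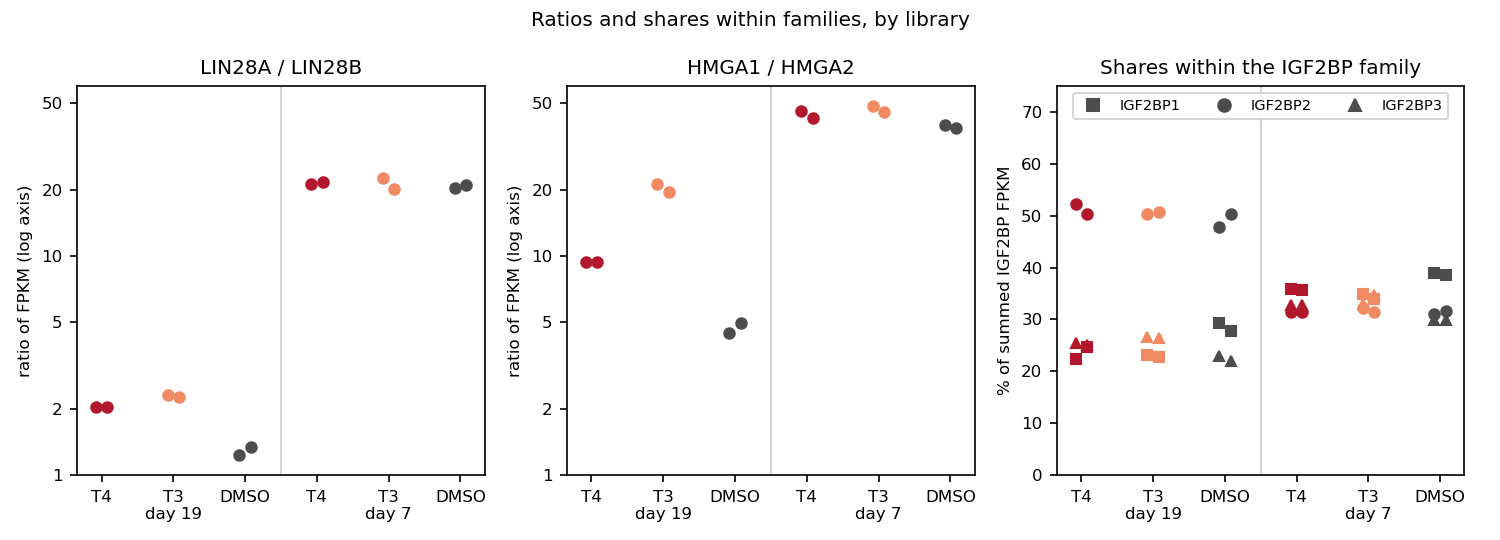
Ratio of LIN28A to LIN28B FPKM and of HMGA1 to HMGA2 FPKM (log axes), and the share of each IGF2BP gene in the summed IGF2BP FPKM, for each library of T4, T3 and DMSO at day 19 and at day 7. At day 19 the HMGA1 to HMGA2 ratio is 9.40 and 9.45 in T4, 21.3 and 19.7 in T3, and 4.45 and 4.95 in DMSO.

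GPC3 (2719, chrX:133535745-133985594, minus strand) showed the widest hormone difference of the 9 at day 19. It had 137 and 147 CPM in T4, 77.3 and 112 CPM in T3, and 673 and 728 CPM in DMSO at that time. Every hormone library stood far below both DMSO libraries, 4.94-fold with T4 (log2 fold change -2.30, SE 0.11, adjusted p = 1.03e-09) and 7.40-fold with T3 (-2.89, SE 0.12, adjusted p = 5.68e-11). At day 7 it had 173 and 173 CPM in T4, 179 and 183 CPM in T3, and 224 and 218 CPM in DMSO. The groups did not overlap, yet log2 fold changes of -0.36 with T4 (adjusted p = 0.0734) and -0.29 with T3 (adjusted p = 0.0904) did not pass in the shared fit. From day 7 alone both were called, at -0.36 with T4 (adjusted p = 5.9e-07) and -0.30 with T3 (adjusted p = 1.84e-06). Both were called without either T3 library of day 19, with adjusted p of 0.000758 to 0.000777 with T4 and 0.00175 to 0.00177 with T3. The effect at day 19 was lower than that at day 7 by -1.95 with T4 (adjusted p = 7.21e-07) and by -2.60 with T3 (adjusted p = 2.03e-08).

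ARID3A (1820, chr19:925732-975939, plus strand) had 359 and 370 CPM in T4, 588 and 432 CPM in T3, and 248 and 194 CPM in DMSO at day 19. The groups did not overlap, although the T3 libraries lay far apart. Fitted log2 effects were 0.72 (SE 0.12, adjusted p = 0.000215) with T4 and 1.21 (SE 0.12, adjusted p = 9.34e-07) with T3. At day 7 it had 99.7 and 94.1 CPM in T4, 99.8 and 91.5 CPM in T3, and 87.9 and 87.4 CPM in DMSO, with no call in the shared fit. From day 7 alone the T4 difference of 0.14 was called (adjusted p = 0.0411). The effect was larger at day 19 by 0.58 with T4 (adjusted p = 0.0244) and by 1.08 with T3 (adjusted p = 0.00021). The T4 difference between the days was lost on leaving out any of 7 libraries, namely all 4 of T4 and DMSO at day 7, both of T4 at day 19 and the second of DMSO at day 19 (adjusted p = 0.0531 to 0.0906).

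Over the 9 genes, the effect at day 19 minus that at day 7 was called higher for 3 and lower for 2 with each hormone. Of all tested genes, 12.4% were called higher and 15.3% lower in this test with T4, and 17.1% and 20.9% with T3.

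Several marker lists were examined beside these genes, and their part in the results was not tested. At day 19, 21% of all tested genes were called higher and 21.9% lower with T4, and 25.1% and 27.3% with T3. At day 19 the summed CPM of 18 hepatocyte markers was 4217 and 4613 in T4, 2237 and 3008 in T3 and 22300 and 22980 in DMSO, with 14 of 18 lower and 1 higher for each hormone. That of 15 mesenchymal and stellate cell markers was 4841 and 5323 in T4, 3549 and 4405 in T3 and 8585 and 8133 in DMSO, with 9 of 15 lower and 2 higher with T4 and 10 lower and 2 higher with T3. Intestine and pancreas markers, of which 11 were in the files, summed to 782 and 999 CPM in T4, 410 and 488 CPM in T3 and 2166 and 2001 CPM in DMSO, and NKX6-1 was at 0 in all 3 groups. Of the 9 tested, 8 were lower and 1 higher with each hormone. The 17 hepatoblast markers, AFP among them, summed to 16220 and 16020 CPM in T4, 14020 and 13930 CPM in T3 and 58680 and 63360 CPM in DMSO, with 12 lower and 3 higher with T4 and 13 lower and 3 higher with T3. AFP alone made up most of the DMSO sum, and its levels are given below with the other oncofetal genes. Neuroectoderm markers summed to 288 and 272 CPM in T4, 340 and 308 CPM in T3 and 161 and 152 CPM in DMSO, with SOX1 at 0 in T4 and DMSO and NEUROG2 at 0 in T3 and DMSO. Of the 9 of these tested, 3 were higher and 1 lower with each hormone, or 33.3% and 11.1%, beside the shares of all genes given above.

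At day 7 the summed CPM of 19 pluripotency genes was 2018 and 2025 in T4, 2895 and 2890 in T3 and 975 and 984 in DMSO, with 17 of 19 higher with T4 and 19 of 19 with T3. That of 30 cell cycle genes was 2941 and 2922 in T4, 3055 and 3050 in T3 and 2451 and 2454 in DMSO, with 18 of 30 higher with T4 and 22 with T3. Of all tested genes, 3.9% were called higher with T4 at day 7 and 9.43% with T3. POU5F1, a core pluripotency factor, had 403 and 408 CPM in T4, 585 and 568 CPM in T3 and 168 and 177 CPM in DMSO at day 7. MKI67, a proliferation marker, had 148 and 146 CPM in T4, 158 and 150 CPM in T3 and 125 and 119 CPM in DMSO at day 7, and was called with T3 (0.34, adjusted p = 0.0399). At day 19 the same pluripotency genes summed to 412 and 422 CPM in T4, 515 and 460 CPM in T3 and 301 and 291 CPM in DMSO, with 7 of 19 higher and 0 lower with T4, and 7 higher and 2 lower with T3. The cell cycle genes summed to 1014 and 978 CPM in T4, 998 and 927 CPM in T3 and 854 and 829 CPM in DMSO at day 19, with 11 of 30 higher and 6 lower with T4, and 7 higher and 15 lower with T3. The shares of all genes at day 19 are those given above for the other lists. The part of the pluripotency and cell cycle genes in the higher LIN28A of day 19 was not tested.

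T4 was compared with T3 directly, since the 2 hormones were given at the same dose and differ by an iodine that T3 lacks. Over the 9 genes, 18 differences were examined on the 2 days, with p-values adjusted over all genes within each day. At day 19, 2 genes were higher in T4 than in T3 (7.42% of all genes) and 2 were lower (8.31%). HMGA2 was higher in T4 by 0.96 on the log2 scale (SE 0.06, adjusted p = 3.9e-07) and GPC3 by 0.58 (SE 0.11, adjusted p = 0.0032). Without the first T3 library of day 19 the GPC3 difference was 0.34 and was still called. ARID3A was lower in T4 by a log2 difference of -0.49 (adjusted p = 0.013) and HMGA1 by -0.17 (adjusted p = 0.0476). The ARID3A call was lost from day 19 alone and in the 3 limma fits on FPKM (adjusted p = 0.0552 to 0.117). Those alternatives also lost the HMGA1 call, as did edgeR without a filter (adjusted p = 0.0581 to 0.187).

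Of the 2 genes lower in T4, the ARID3A call was lost without the first T3 library or either T4 library of day 19 (-0.51 to -0.24, adjusted p = 0.0609 to 0.165). The HMGA1 call was lost without any 1 of the 6 day-7 libraries, the first T3 library or either T4 library of day 19 (-0.20 to -0.11, adjusted p = 0.064 to 0.309). IGF2BP3, at -0.16 (adjusted p = 0.0791), was called without either DMSO library of day 19 (adjusted p = 0.049 and 0.0494). LIN28A, LIN28B, IGF2BP1 and IGF2BP2 had 95% intervals of -0.20 to 0.07, -0.07 to 0.28, -0.21 to 0.09 and -0.17 to 0.04, in that order. At day 7, 0 of the 9 were called between T4 and T3 by edgeR, 0 had an unadjusted p of at most 0.05 and 0 were called by DESeq2, where 0.0387% of all genes were called higher in T4 and 0.326% lower. The 95% intervals of the 9 there ran from -0.30 at the lowest to 0.29 at the highest.

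From day 7 to day 19 the 9 genes parted in direction. In DMSO, 4 were higher (37.6% of all genes) and 5 lower (34.9%) at day 19. LIN28A was 35.9-fold lower at day 19 (log2 fold change -5.17, SE 0.07, adjusted p = 3.72e-16), HMGA1 3.29-fold lower (-1.72, SE 0.06) and LIN28B 2.21-fold lower (-1.14, SE 0.08). IGF2BP1, at -0.65, and IGF2BP3, at -0.63, were also lower. GPC3 was 3.17-fold higher at day 19 (1.66, SE 0.11, adjusted p = 3.39e-09), HMGA2 2.60-fold higher (1.38, SE 0.06) and ARID3A 2.52-fold higher (1.33, SE 0.13). IGF2BP2 was higher by 0.43, a call that limma on FPKM did not make (0.03, adjusted p = 0.441 to 0.52).

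With T4, 3 were higher at day 19 than at day 7 (35.5% of all genes) and 6 lower (36.4%), and with T3, 2 were higher (35.2%) and 6 lower (37.9%). GPC3 was lower at day 19 than at day 7 with T4, by -0.28 (adjusted p = 0.0325), and with T3, by -0.94 (adjusted p = 2.94e-06), and higher in DMSO. DESeq2 did not call the T4 difference (-0.26, adjusted p = 0.134). The T4 call was lost without either T4 library of day 7 or the first T4 library of day 19 (adjusted p = 0.0946 to 0.168). HMGA2 was higher at day 19 with T4, by 0.99, and stood at 0.03 with T3 (adjusted p = 0.682), where limma on FPKM gave -0.25 (adjusted p = 0.00348). ARID3A was higher at day 19 by 1.91 with T4 and 2.41 with T3. On FPKM the median over all genes for day 19 against day 7 shifted by -0.37 in DMSO, -0.22 with T4 and -0.27 with T3, at a pseudocount of 0.1. Of the genes called in DMSO, 33.05% were higher at day 19 on that scale and 51.87% on counts. With that shift, the DMSO difference was -1.06 for IGF2BP1 and -1.03 for IGF2BP3 on log2(FPKM + 0.1), and 0.90 for HMGA2 on log2(FPKM + 1).

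Ordered by mean FPKM at day 19, HMGA1 led with 351 in T4 and 381 in T3, and GPC3 led with 257 in DMSO. In DMSO the order went on with HMGA1 at 196, ARID3A at 66.6, HMGA2 at 41.8, IGF2BP2 at 40.2, IGF2BP1 at 23.3, IGF2BP3 at 18.3, LIN28A at 6.10 and LIN28B at 4.75. HMGA2 and IGF2BP2 overlapped there and the other neighbours did not. ARID3A followed HMGA1 in T4, at 120, and in T3, at 162. GPC3 stood next in T4, at 56.9, and lay below IGF2BP2 in T3, at 36.7 beside 50.7. At day 7 HMGA1 led in T4 at 1012, in T3 at 1048 and in DMSO at 855, followed by LIN28A at 322 in T4, 306 in T3 and 289 in DMSO. GPC3 stood next at 82.1 in T4, 85.4 in T3 and 107 in DMSO. LIN28B was the lowest of the 9 in all 6 groups.

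The transcript tables listed more than 1 transcript for HMGA1, HMGA2, IGF2BP1, IGF2BP2 and GPC3. HMGA1 was carried by NM_145899, which encodes 107 amino acids and took 70.5% to 78.8% of the gene's FPKM over the 12 libraries. NM_002131, of 96 amino acids, took 13.3% to 20.3%. For HMGA2, NM_003483 with the 3003-base 3′ UTR and its 4 matches took 87.0% to 95.5%, and NM_001300919, whose 533-base 3′ UTR holds no match, took 3.01% to 12.2%. The shorter IGF2BP1 transcript NM_001160423 took 13.9% and 10.4% in T4, 0% and 0% in T3, and 0% and 16.6% in DMSO at day 19, and 23.6% to 35.3% at day 7. An exact 0 from such an estimate may be a failed split, and these shares were given no test.

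The genes around the 9 were taken from lists chosen for their roles. Their counts stand beside 21% of all genes higher and 21.9% lower with T4 at day 19, and 25.1% higher and 27.3% lower with T3. Of 16 genes of let-7 biogenesis, 4 were higher and 0 lower with T4 at day 19, and 3 were higher and 1 lower with T3. These are 25% higher with T4 and 18.8% with T3. XPO5, which exports microRNA precursors from the nucleus, was higher by 0.56 with T4 and 0.78 with T3. TUT7, which adds uridines to LIN28-bound let-7 precursors, was higher by 0.32 with T4 and 0.79 with T3. At day 7 TRIM71, a stem cell RNA-binding protein and let-7 target, was higher by 0.54 with T4 and 0.60 with T3. In DMSO 10 of the 16 were lower at day 19 than at day 7 and 2 higher, with DROSHA, the nuclear processing enzyme, at -0.71. These are 62.5% lower and 12.5% higher, beside 34.9% and 37.6% of all genes.

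Of 40 other conserved let-7 targets, 11 were higher and 12 lower with T4 at day 19, and 13 higher and 14 lower with T3. These are 27.5% higher and 30% lower with T4 and 32.5% higher and 35% lower with T3, near the shares of all genes, and the medians were -0.04 and 0.05. MYCN, a proto-oncogene, was higher by 1.85 with T4 and 2.59 with T3. GATM, an enzyme of creatine synthesis, was lower by -1.42 with T4 and -2.61 with T3. COL1A2, a fibrillar collagen chain, was lower by -0.74 with T4 and -1.20 with T3.

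Of 16 mRNAs known to be bound by IGF2BP proteins, 10 were higher and 3 lower with each hormone at day 19. CD44, an adhesion receptor, was higher by 1.62 with T4 and 2.21 with T3, and MYC by 1.26 with T4 and 1.82 with T3. GLI1, a transcription factor and target of hedgehog signalling, was lower by -2.57 with T4 and -3.61 with T3. At day 7, 4 of the 16 were higher with T4 and 7 with T3. These are 25% with T4 and 43.8% with T3, beside 3.9% and 9.43% of all genes. IGF2, which gave the family its name, had 13160 and 14040 CPM in T4, 13260 and 15200 CPM in T3 and 11510 and 12360 CPM in DMSO at day 19. At day 7 edgeR called IGF2 higher in T3 than in DMSO, by 0.77 on the log2 scale (adjusted p = 5.87e-06). It was called lower in T4 than in T3 there, at -0.84 (adjusted p = 3.98e-05).

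Among 18 hedgehog and WNT genes linked to GPC3, 4 were higher and 9 lower with each hormone at day 19. IHH, a hedgehog ligand, was lower by -1.29 with T4 and -2.51 with T3. FURIN, the protease that cleaves GPC3, was higher by 0.69 with T4 and 1.13 with T3. Of 9 other glypicans and syndecans, 4 were higher and 3 lower with T4 and 4 were higher and 4 lower with T3. GPC1 was higher by 0.66 with T4 and 0.90 with T3, and SDC2, a syndecan of mesenchymal and liver cells, was lower by -1.38 with T4 and -1.97 with T3.

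Of 15 other oncofetal genes of the liver, 4 were higher and 4 lower with T4 at day 19, and 6 higher and 5 lower with T3. AFP, the fetal counterpart of albumin, had 1686 and 2023 CPM in T4, 430 and 642 CPM in T3 and 32930 and 35470 CPM in DMSO at day 19. It was lower by -4.20 with T4 and -6.00 with T3, in the same direction as GPC3. CD24, a surface protein of fetal and tumour cells, was higher by 0.88 with T4 and 1.17 with T3. H19, the imprinted RNA next to IGF2, had 8.85 and 8.41 CPM in T4, 11.02 and 11.2 CPM in T3 and 3.998 and 3.70 CPM in DMSO at day 19.

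Of 7 genes of the ARID3 family and its partners, 3 were higher and 2 lower with T4 at day 19, and 2 higher and 2 lower with T3. ARID3B, the closest paralog of ARID3A, was higher by 0.26 with T4 and 0.39 with T3. Of 8 measured HMG-box and nucleosome-binding HMG genes, 2 were higher and 1 lower with T4, and 1 higher and 4 lower with T3. HMGB3, the one higher with each hormone at a day-19 log2 fold change of 1.14 with T4 and 1.49 with T3, is known from stem and progenitor cells. In DMSO 7 of the 8 (87.5%, beside 34.9% of all genes) were lower at day 19 than at day 7, among them HMGB2 at -2.84.

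For each of the 9, the 2 genes with the most similar profile over the 12 libraries were found among 15352 genes by the root mean square difference of centred log2(CPM + 0.5). The 12 values share their libraries and groups, and no p is given. LIN28A was closest to DLX5 (0.28) and CTNNA2 (0.36), LIN28B to CTDSPL2 (0.05) and DEK (0.06), and HMGA1 to MCM7 (0.07), a subunit of the replicative helicase, and TFAP4 (0.11). HMGA2 was closest to VTCN1 (0.12) and MYLK (0.13), and GPC3 to GALNT16 (0.14) and EPDR1 (0.17). IGF2BP1 was closest to ZNF638 (0.04) and PHF3 (0.04), IGF2BP2 to CNN2 (0.04) and MGRN1 (0.04), IGF2BP3 to PHF20 (0.06) and COA7 (0.06), and ARID3A to RASAL2 (0.08) and MYO7A (0.10). LIN28A had the largest distance to its closest gene of the 9, but the distance is not scaled to a gene's own range. By Pearson correlation LIN28A and DLX5 stood at 0.997, beside 0.977 for HMGA2 and VTCN1.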

How the data were processed

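Transcript tables of 12 libraries were used. The deposited expected counts are, per the submitters' processing notes, from a set of tools that names HISAT, Bowtie2 and RSEM on hg38, without versions, with no further scaling. FPKM, in the deposited tables, divides each estimate by transcript length and library size. The lowest FPKM listed was 0.01, a transcript not listed in a library was taken as 0, and the strand of counting is not given in the sources used here.

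Both units were summed per Entrez gene. Of 23922 genes, 23801 matched a RefSeq symbol and 121 did not. Counts were rounded and fitted with edgeR 4.0.16 in R 4.3.3: filterByExpr on 6 groups (18101 genes), TMM, 1 mean per group, no block, 6 residual degrees of freedom, a two-sided quasi-likelihood F test and Benjamini-Hochberg adjustment over all tested genes. Calls were made at an adjusted p of at most 0.05. The common biological coefficient of variation was 5.42%. The shared fit pools day 7 with the more variable day 19. Levels are TMM-scaled CPM. The script was tested on simulated data.

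Alternatives were DESeq2 1.42.0, its size factors in edgeR, no filter, each day alone, no 10 most abundant genes, a replicate block, each library left out, and limma 3.58.1 on log2(FPKM + 0.1) or log2(FPKM + 1). Log2 fold changes on FPKM understate changes of low genes. Named genes were the 9, up to 4 genes of smallest p per list, the 2 most similar genes per member, and POU5F1, AFP and MKI67. ALB, HNF4A, MALSU1 and the let-7 hosts and antisense genes were added as checks. The 9 genes, the lists and the rule were chosen with earlier results of these data known.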

Additional observations from a re-analysis of the deposited data

Results flagged for a closer look

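The hormone effect differed between day 19 and day 7, by the test of the difference itself in edgeR, for 5 of the 9 genes with each hormone. Given as the day-19 effect minus the day-7 effect on the log2 scale, LIN28A differed by 0.5287 with T4 and 0.6551 with T3, HMGA1 by 0.4335 with T4 and 0.5466 with T3, and ARID3A by 0.5784 with T4 and 1.0819 with T3. HMGA2 differed by -0.3894 with T4 and -1.3501 with T3, and GPC3 by -1.9483 with T4 and -2.5987 with T3. In each case the effect was farther from 0 at day 19. The HMGA2 difference with T4 was not called by limma on FPKM (adjusted p = 0.0777 to 0.108), and that of ARID3A with T4 was not called by DESeq2 (adjusted p = 0.0516) or without any 1 of 7 libraries (adjusted p = 0.0531 to 0.0906). Summed hepatocyte markers at day 19 were 4217 and 4613 CPM in T4, 2237 and 3008 CPM in T3, and 22300 and 22980 CPM in DMSO, and their part in these differences was not tested.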

How the results depend on the processing

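Among the 9 genes, the counts called for T4 and T3 against DMSO at day 19, day 19 against day 7 and the differences between days stayed within 1.5 times under all alternatives run. For T4 against T3 at day 7 the count was 0 throughout, while over all genes it was 66 in the shared fit, 19 to 112 with 1 library left out and 435 with day 7 alone. With the libraries of 1 day alone, day 7 gave 6 calls with T4 (2 in the shared fit) and 5 with T3 (3 in the shared fit). Calls over all genes there numbered 3460 with T4 (1162 in the shared fit) and 5328 with T3 (2891 in the shared fit). From day 19 alone, T4 against T3 gave 2 calls among the 9 (4 in the shared fit). Over all genes that comparison gave 1478, or 8.65% of 17084 tested (2848 in the shared fit). Limma on FPKM without a filter gave 1 for T4 at day 7, and 670 over all genes. The 3 limma fits gave 2 for T4 against T3 at day 19, and 2003 to 2690 over all genes. With each library left out in turn, T4 at day 7 gave 0 to 4 calls, T3 at day 7 gave 2 to 4 and T4 against T3 at day 19 gave 2 to 5. Over all genes, the 2848 calls for T4 against T3 at day 19 numbered 1510 without the first T3 library of day 19, and 1735 and 1817 without the first and the second T4 library. The day-19 against day-7 difference of HMGA2 in T3 (0.03) turned to -0.2549, -0.2441 and -0.2549 in limma on log2(FPKM + 0.1), log2(FPKM + 1) and log2(FPKM + 0.1) without a filter. The cause was not tested. On log2(FPKM + 0.1) 67.19% of the called genes were higher for T4 at day 19 and 68.12% for T4 against T3 at day 19, beside 48.92% and 47.16% on counts. For the difference between days it was 68.27% with T4 and 57.8% with T3 (44.84% and 44.97% on counts), and for day 19 against day 7 37.38% with T4 and 35.41% with T3 (49.4% and 48.11% on counts). The median over all genes moved by 0.12 for T4 at day 19, and by 0.15 with T4 and 0.11 with T3 for the difference between days.

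With the replicate number as a block, 7 genes were called for T4 and 7 for T3 at day 19, and the block changed no call of the 9 genes in any comparison. The labels only share a number, so nothing shows that it pairs cultures.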
